A study of Mus musculus with 26 samples.

Results

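The pannexin and connexin genes of the mesenteric artery wall were followed here across 26 RNA sequencing libraries: the pannexins Panx1 and Panx2 and the connexins Gja1, Gja4, Gja5 and Gjc1. They were chosen by gene symbol, as a pannexin pair with the 4 connexins best known from arteries, and make up 6 of the 57010 genes in the counts table. All libraries came from mesenteric arteries of male mice aged 8 weeks. Mice without Panx1 (3 libraries, a global knockout) were set against wild-type mice (3 libraries). Mice labelled Y198F+/+, S205A+/+ or Y308F+/+ (3, 4 and 3 libraries) carried a changed residue of pannexin 1 and were set against the controls of the same line, labelled Y198F-/-, S205A-/- and Y308F-/- (3, 4 and 3 libraries). In Y198F and Y308F a tyrosine is replaced by phenylalanine, and in S205A a serine by alanine. No Cre or transgene is given in the labels, and the mouse strain is not given in the sources used here. The labels number the libraries of a group as replicates, and the series text counts 3 vascular trees per genotype, against the 4 libraries of each S205A group. Nothing says whether every library is a separate animal, so p-values measure only the spread between libraries, which may be partly technical.

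Pannexins form channels in the plasma membrane of a single cell and let ATP and other small molecules out, where they act on purinergic receptors of neighbouring cells. Connexins form hemichannels too, but mainly dock across 2 cells to make gap junctions, which pass ions and small signals from one endothelial or smooth muscle cell to the next and carry dilation along an arteriole. In arteries, connexin 37 (Gja4) and connexin 40 (Gja5) are known mainly from endothelium, connexin 43 (Gja1) from both layers and other wall cells, and connexin 45 (Gjc1) from smooth muscle.

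Panx1 (ENSMUSG00000031934) spans chr9:14913424-14956813 of GRCm39 on the minus strand and encodes 426 residues. The 3 mutated residues all lie in its exon 4, so the stretches that carry them are shown first. Each line gives 27 bases of the GRCm39 reference as transcribed, 5′ to 3′, with 4 codons before and after the mutated residue's codon, which stands in capitals.
Y198, chr9:14919252-14919278, minus strand: atcgtggagcagTACttgaagacaaaa
S205, chr9:14919231-14919257, minus strand: acaaaaaagaacTCTagtcatttaatc
Y308, chr9:14918922-14918948, minus strand: attctcaaagtgTATgaaatcctgccc
Y198 and S205 are 7 residues (21 bases) apart, so their stretches overlap, and Y308 follows S205 by 103 residues. These are reference codons. The bases changed in the mutant mice cannot be read from counts per gene.

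Panx2 (ENSMUSG00000058441) lies at chr15:88943920-88957770 on the plus strand and encodes 677 residues. Gja1 (ENSMUSG00000050953) lies at chr10:56253241-56278609 on the plus strand, Gja4 (ENSMUSG00000050234) at chr4:127205214-127207851 on the minus strand, Gja5 (ENSMUSG00000057123) at chr3:96812009-96984732 on the plus strand and Gjc1 (ENSMUSG00000034520) at chr11:102686879-102710532 on the minus strand. Each of the 4 connexins keeps its whole coding sequence in 1 exon, and they encode 382, 333, 358 and 396 residues in that order. Exons of Gja5 overlap those of Gpr89 on the other strand, and exons of Panx2 overlap the noncoding 1810021B22Rik on the other strand. Since no source used here says whether counting used the strand, the values of Gja5 and Panx2 may hold reads of these neighbours or lack reads shared with them. Exons of Panx1, Gja1 and Gja4 overlap only noncoding genes on the other strand, whose identifiers are not among those counted. If counting ignored the strand, reads of those genes could be held in the values of Panx1, Gja1 and Gja4. Gjc1 overlaps no annotated gene.

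Total counts ran from 14.9 to 23.6 mega-counts (M) per library. In 9 libraries, named the 22 series here, the library name carries a number beginning with 22, and what that number stands for is not stated. The 22 series holds all 3 Y198F libraries but none of their controls, S205A controls 1 to 3 and S205A libraries 2 to 4. Annotated ribosomal RNA took 0.0831% to 0.139% of the counts in the 22 series and 2.32% to 7.09% in the other 17 libraries. All 10 endothelial and all 10 smooth muscle markers looked up were detected, with sums of 1458 to 10823 and 21485 to 44556 CPM per library (CPM: counts per M counts of the scaled library), so both layers of the labelled vessel were represented. Sums for other cells ran from 1513 to 6252 CPM for 8 fibroblast markers, 40.2 to 2026 for 6 adipocyte markers and 0 to 39.4 for 5 mesothelium markers. S205A control 1 stood apart. Its endothelial sum of 1458 CPM was 25.8% of the median of the other 8 libraries of the 22 series (4953 to 10823 CPM), with Pecam1 at 24.3% and Vwf at 19.9% of their medians, while its smooth muscle sum was 144% of theirs. In the same library Panx1 stood at 24.4%, Gja5 at 27.8% and Gja1 at 36.0% of those 8 libraries' medians, against 104% for Gja4 and 147% for Gjc1. In bulk tissue fewer cells of a type and less RNA per cell cannot be told apart, and the part of the low endothelial sum in this library's values was not tested. The S205A changes of the 5 genes that passed the filter on low counts and the Gja4 share of the 22 series by exon length are therefore also given without S205A control 1. Other means and shares keep it.

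The 6 genes differed widely in level. Divided by exon length, mean levels over the 26 libraries were 145 CPM per kb ± 52.9 (SD) for Gja4, 69.4 ± 30.2 for Gja5, 9.77 ± 1.44 for Gjc1, 1.16 ± 0.775 for Gja1, 0.458 ± 0.208 for Panx1 and 0.0305 ± 0.0297 for Panx2. Gja4 and Gja5 thus stood above Gjc1, and both pannexins stood below all 4 connexins. Of the 17 other connexin and pannexin genes, Gjc3, known from glia, was highest at 1.21 CPM per kb, close to Gja1 and above Panx1. Panx3, Gjb6, Gjd4 and Gje1 had 0 counts in all 26 libraries.

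**Figure D1:**
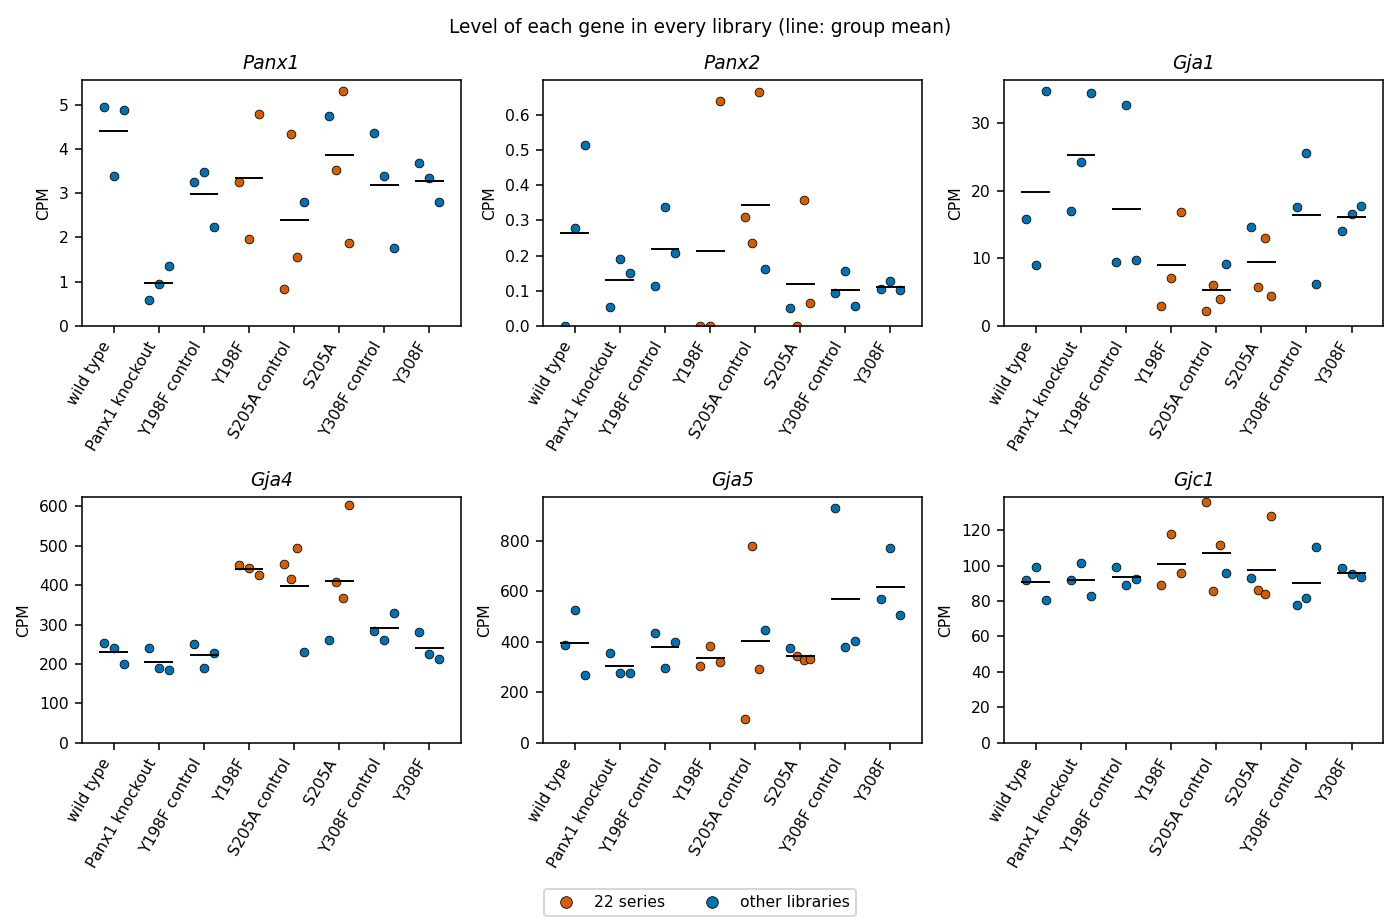
Level of the 6 genes in CPM (vertical axes, linear, each from 0) in every library, by group along the horizontal axes, with 1 point per library, orange for the 22 series and blue for the others, and a line at each group mean. Gja4 shows the 9 orange points from 367 to 603 CPM above all 17 blue ones from 184 to 329, and Panx1 shows the 3 knockout libraries from 0.582 to 1.36.

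Panx1, the channel that every comparison of the series is about, was counted sparsely: 11 to 96 counts per library. The 3 wild-type libraries had 4.96, 3.38 and 4.89 CPM (96, 61 and 95 counts), and the 3 knockout libraries had 0.582, 0.944 and 1.36 CPM (11, 20 and 27 counts). Every knockout library was below every wild-type one, and none was at 0 or under the floor of 3 counts. The knockout mean was 21.8% of the wild-type mean, 0.961 CPM ± 0.388 against 4.41 ± 0.891 (SD, n = 3 each). The log2 fold change was -2.17 (SE 0.388), with an unadjusted p of 0.000308 and an adjusted p of 0.250 in edgeR's quasi-likelihood test. The call depended on the test: DESeq2 gave -2.18 with an adjusted p of 0.000366, edgeR without a filter on low counts gave -2.16 with 0.000145, and the authors' deposited table lists -2.19 with 0.0133. As background, 18.8% of the 16193 genes tested did not overlap between these groups (10.5% with the knockout lower), 11.2% had an unadjusted p under 0.05 and 0.0309% passed the adjusted threshold of 0.05 in edgeR, against 0.963% in DESeq2. The summed endothelial markers of these groups overlapped, 3902 to 5158 CPM in the knockout and 3515 to 5553 in wild type. Their ribosomal RNA shares did not overlap, at 2.32% to 3.09% in the knockout and 4.12% to 5.84% in wild type. The part of that difference in the Panx1 value was not tested.

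The Panx1 levels of the point mutants overlapped those of their controls. The Y198F libraries had 3.26, 1.96 and 4.80 CPM and their controls 3.25, 3.49 and 2.24. The Y308F libraries had 3.68, 3.34 and 2.80 CPM and their controls 4.38, 3.40 and 1.76. The S205A libraries had 4.74, 3.53, 5.32 and 1.87 CPM and their controls 0.830, 4.35, 1.55 and 2.80. Every line thus had libraries of both kinds at like levels, and S205A control 1, the library with few endothelial transcripts, lay inside the range of the knockout libraries. The log2 fold changes were 0.15 (SE 0.386) for Y198F, 0.70 (SE 0.521) for S205A and 0.05 (SE 0.368) for Y308F, with edgeR adjusted p-values of 0.835, 1.00 and 0.991. Once the series entered the model the Y198F value was 0.53 (SE 0.670, edgeR adjusted p = 1.00), or 0.35 (SE 0.602) without S205A control 1. Without S205A control 1 the S205A value was 0.41 (SE 0.464), and within the 22 series as well it was 0.29 (SE 0.593). Summed fibroblast markers ran from 1513 to 2056 CPM in the S205A controls and from 2146 to 6252 CPM in the S205A libraries, and their part in the S205A values of Panx1 and Gja1 was not tested.

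The knockout effect on Panx1 was then compared with each point mutation in a model of the 4 groups involved. The log2 change of the knockout minus that of Y198F was -2.32 (SE 0.549, edgeR adjusted p = 0.0156), in a test that called 11.6% of genes. Against S205A the difference was -2.89 (SE 0.722, unadjusted p 0.00115, edgeR adjusted p = 0.999), or -2.61 (SE 0.636, edgeR adjusted p = 0.845) without S205A control 1, and against Y308F it was -2.23 (SE 0.535, unadjusted p 0.00104, edgeR adjusted p = 1.00). Those 2 tests called 0.00562% and 0.0116% of genes. The 3 differences thus ran from -2.89 to -2.23, while the tests differed widely in the share of genes called. In a model with the library series added, the difference from Y198F was -2.71 (SE 0.831, adjusted p = 1.00).

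Panx2, the other pannexin sought in the artery, was close to the limit of counting. It had 0 to 12 counts per library, stood under the floor of 3 counts in 12 libraries and had 0 counts in 4 of them. Its highest libraries, S205A control 3 and Y198F 3, had 12 counts each (0.666 and 0.640 CPM), and the other 2 Y198F libraries had 0, which allows up to 0.163 and 0.159 CPM, for counting error only. The 3 knockout libraries had 1, 4 and 3 counts and the 3 wild-type libraries 0, 5 and 10. The comparisons with a filter on low counts did not test Panx2, so 5 of the 6 genes were tested there. Without the filter its log2 changes were -0.94 (SE 1.40) in the knockout, -0.060 (SE 1.56) in Y198F, -1.48 (SE 1.43) in S205A and 0.16 (SE 1.77) in Y308F, with edgeR adjusted p-values from 0.812 to 0.998. A difference in Panx2 with loss of Panx1 was not detected, and at these low counts modest changes could be missed.

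Gja4, which encodes connexin 37, was the gene among the 6 that passed the test in a mutant line. The Y198F libraries had 452, 443 and 427 CPM and the Y198F controls 251, 191 and 228. All 3 mutant libraries lay above all 3 controls. The means were 441 ± 12.7 and 223 ± 30.4 CPM (SD, n = 3 each), a log2 change of 0.98 (SE 0.121, edgeR adjusted p = 0.000586), and 15% of the 16050 genes tested passed in this comparison (9.55% higher and 5.48% lower in Y198F). Non-overlap of the groups was also common there, at 34.2% of genes (19% with Y198F higher). The mutant libraries all belong to the 22 series and the controls all lie outside it, so inside this comparison mutation and series cannot be told apart. The summed endothelial markers were higher in Y198F too, 5568 to 5967 CPM against 4259 to 5370 in the controls, and their part in the Gja4 value was not tested.

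The S205A line holds both series in both of its groups, and there Gja4 followed the series. The 6 libraries of that line in the 22 series had 453, 414 and 493 CPM (controls) and 409, 367 and 603 CPM (mutants), while its 2 other libraries had 230 (control 4) and 261 (mutant 1). Over all libraries the 22 series ran from 367 to 603 CPM with a median of 443, and the other 17 from 184 to 329 with a median of 239. The ranges did not overlap, which held for 4.65% of 18715 genes (3.54% with the 22 series higher). With the group and the series in one model, Gja4 was higher in the 22 series by 0.90 on the log2 scale (SE 0.172, edgeR adjusted p = 0.00131), in a test that called 11.7% of genes (7.57% higher). The S205A line alone informs that term, through its 2 libraries outside the 22 series. Fitted on that line only, the same estimate of 0.90 had an SE of 0.203 (edgeR adjusted p = 0.0393), and without S205A control 1 the model of all groups gave 0.89 (SE 0.181, edgeR adjusted p = 0.00236). Panx1, Gja1, Gja5 and Gjc1 differed by -0.37, -1.05, -0.18 and 0.15 in that model, with edgeR adjusted p-values from 0.336 to 0.863.

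In fits that took the series into account, the Y198F difference in Gja4 did not pass. These fits rest on libraries of the S205A line. Once the series entered the model, the Gja4 value of Y198F was 0.09 (SE 0.230, edgeR adjusted p = 1.00). Against the 3 S205A controls of the 22 series it was -0.04 (SE 0.137, adjusted p = 1.00), and against S205A controls 2 and 3 alone also -0.04 (SE 0.151). None of these 3 fits called any gene at the adjusted threshold. The authors' deposited table for Y198F lists Gja4 at 0.14 with an adjusted p of 0.959. Recomputed with DESeq2 from the counts of all libraries, the fold changes of the authors' deposited table for Y198F matched a comparison with the S205A controls to within 0.00016 for every gene, whereas a comparison with the labelled Y198F controls gave 0.97 for Gja4. Gja1 shows the same contrast, 0.73 in the authors' deposited table and -0.97 against the labelled controls.

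In the other lines Gja4 did not pass the test. The 3 knockout libraries had 239, 189 and 184 CPM against 253, 240 and 200 in wild type, a log2 change of -0.16 (SE 0.141, edgeR adjusted p = 0.721). The Y308F libraries had 280, 225 and 213 CPM against 283, 261 and 329 in their controls, or -0.27 (SE 0.160, adjusted p = 0.940). The S205A change was 0.04 (SE 0.288, adjusted p = 1.00), with 0.11 (SE 0.311) without S205A control 1 and 0.02 (SE 0.210) within the 22 series. The groups overlapped in all 3 lines. The Y198F fold change differed from that of the knockout, -1.13 for the knockout minus Y198F (SE 0.190, adjusted p = 0.00221), and from that of Y308F, 1.24 for Y198F minus Y308F (SE 0.203, adjusted p = 0.00410, in a test that called 5.7% of genes). With the series as a term these differences were -0.26 and 0.37, each with an adjusted p of 1.00.

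**Figure D2:**
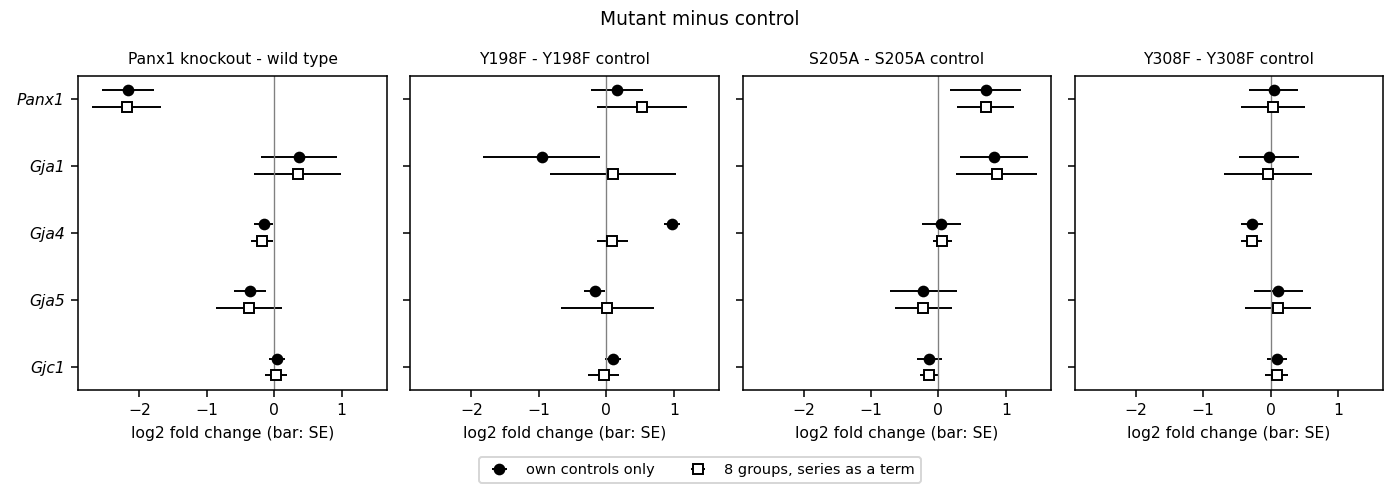
Log2 fold change of the 5 tested genes, mutant minus control, in the 4 comparisons (horizontal axes), with bars of 1 SE. Filled circles use each line's own controls and open squares a fit of all 8 groups with the library series as a term. Gja4 in Y198F moves from 0.98 to 0.09 between them, and Panx1 in the knockout stays near -2.2.

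Gja5, which encodes connexin 40, had 91.6 (S205A control 1) to 930 CPM (Y308F control 1), a 10.2-fold range. The 3 knockout libraries had 355, 277 and 278 CPM and the wild-type libraries 387, 527 and 266. The Y198F libraries had 305, 383 and 318 CPM and their controls 435, 294 and 400. The Y308F libraries had 567, 771 and 506 CPM and their controls 930, 377 and 402. The 4 S205A libraries had 375, 344, 328 and 330 CPM, while their controls spread from 91.6 over 293 and 445 to 778. The groups overlapped in every line, and the widest spread lay among control libraries. The log2 fold changes were -0.35 (SE 0.236) for the knockout, -0.17 (SE 0.152) for Y198F, -0.22 (SE 0.499) for S205A and 0.12 (SE 0.366) for Y308F, with edgeR adjusted p-values of 0.621, 0.507, 1.00 and 0.988. Without 1 library the knockout value ran from -0.57 (without wild type 3) to -0.083 (without wild type 2), and the Y198F value from -0.33 (without its control 2) to -0.056 (without its control 1). Leaving out Y308F control 1, the library with 930 CPM, gave 0.67 in that line, and leaving out S205A control 2, with 778 CPM, turned the S205A value to 0.31. Without S205A control 1, with 91.6 CPM, it was -0.56 (SE 0.274, edgeR adjusted p = 1.00).

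Gja5 moved with the endothelial markers from library to library. Over the 14 libraries outside the 22 series and outside the knockout group, log2 CPM of Gja5 and of the summed endothelial markers had Pearson's r = 0.964 and Spearman's rho = 0.965 (permutation p = 1e-05 for each, the smallest that the permutations can give, and 0.0003 adjusted over 30 relations). Without the 2 libraries farthest from the median, Y308F control 1 and Y308F 2, r was 0.908. In the 9 libraries of the 22 series r was 0.979 (exact permutation p = 0.00469) but rho was 0.617 (exact permutation p = 0.0857), and r fell to 0.199 without S205A controls 1 and 2, so there it rests on those libraries. Gja5 and the smooth muscle sum had r = -0.787 in the 22 series (exact permutation p = 0.0158, adjusted p 0.0473), with rho = -0.450 (adjusted p 0.349). That r was 0.158 without S205A controls 1 and 2, and -0.208 in the 14 libraries (permutation p = 0.478). Gja5 per 100 CPM of endothelial markers ran from 5.33 to 9.49 over all 26 libraries, a 1.78-fold range. The libraries compared share 1 CPM scale, and the relations were chosen after the values were seen.

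Gja4, although also known from endothelium, had no relation with the same markers that passed the threshold in either set. In the 14 libraries r was 0.383 (permutation p = 0.179) and rho 0.275 (permutation p = 0.343). In the 22 series r was -0.194 (exact permutation p = 0.514) and rho -0.667 (exact permutation p = 0.0589), and r was -0.587 without S205A controls 1 and 2. Gja4 had r = 0.413 with the smooth muscle sum in the 14 libraries (permutation p = 0.142) and 0.526 in the 22 series (exact permutation p = 0.144). By rank the 22 series gave rho = 0.733 (exact permutation p = 0.0311, adjusted p 0.133), so neither set passed after adjustment. Without the 2 farthest libraries of each set r was 0.608 and 0.713. Per 100 CPM of endothelial markers it ran from 2.67 to 31.1, an 11.6-fold range, and the top value was that of S205A control 1. Without that library the highest value was 12.2, in S205A 4, and the range 4.56-fold, beside 1.78-fold for Gja5. Outside the 22 series the ranges were 2.33-fold for Gja4 and 1.38-fold for Gja5. In that library Gja4 stayed at 453 CPM while 9 of the 10 endothelial markers stood below their median in the other 22 series libraries. Panx1 had r = -0.0418 with the endothelial sum in the 14 libraries (permutation p = 0.886). In the 22 series its r with the endothelial sum was 0.762 (exact permutation p = 0.0131, adjusted p 0.0459), but rho was 0.683 (exact permutation p = 0.0503, adjusted p 0.161) and r fell to 0.530 without S205A controls 1 and 2. With the smooth muscle sum r was -0.925 there (exact permutation p = 0.000306, adjusted p 0.00459). This was -0.889 without S205A controls 1 and 2, but -0.332 in the 14 libraries (permutation p = 0.247). In the 14 libraries Panx1 had r = 0.676 with the fibroblast sum (permutation p = 0.00800, adjusted p 0.0343), with rho = 0.587 (adjusted p 0.133) and r = 0.517 without S205A control 4 and Y308F control 3.

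**Figure D3:**
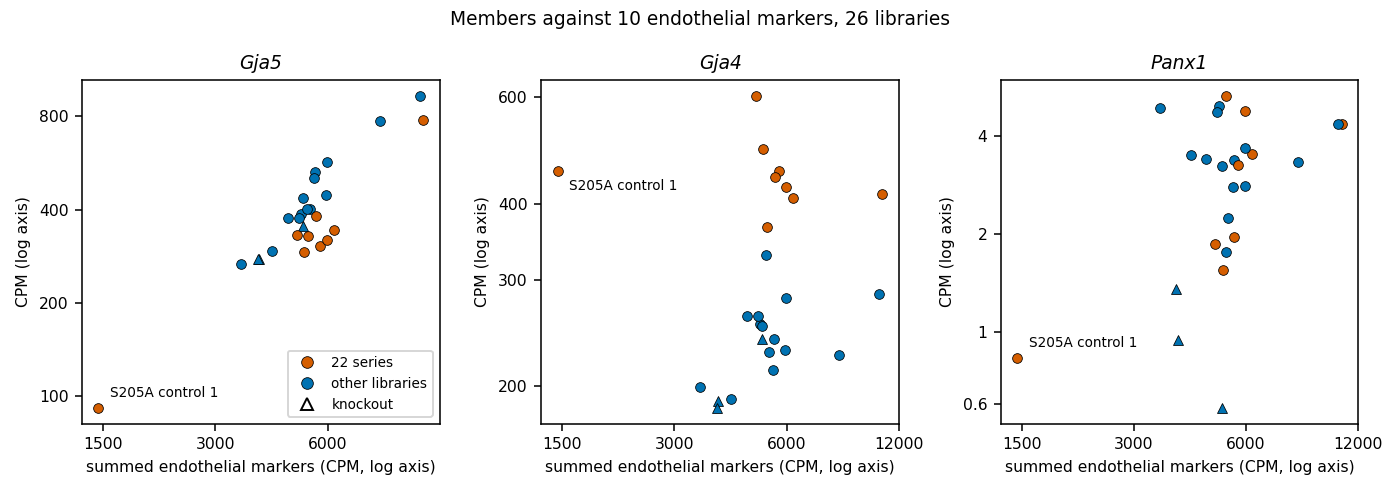
CPM of Gja5, Gja4 and Panx1 (vertical log axes) against the summed CPM of 10 endothelial markers (horizontal log axes), 1 point per library, orange for the 22 series, blue for the others and triangles for the knockout. Gja5 rises along the marker sum from 91.6 to 930 CPM, while Gja4 splits by series and S205A control 1 keeps 453 CPM at the lowest marker sum of 1458.

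Gjc1, which encodes connexin 45, was the steadiest of the 6, at 78.0 to 136 CPM in the 26 libraries, a 1.74-fold range with a coefficient of variation of 14.7%. The knockout libraries had 91.9, 102 and 82.7 CPM and the wild-type libraries 91.8, 99.1 and 80.7, nearly the same 3 values. The Y198F libraries had 89.1, 118 and 95.8 CPM against 99.1, 89.1 and 92.2 in their controls, and the Y308F libraries 98.7, 95.4 and 93.3 against 78.0, 81.6 and 111. The S205A libraries had 93.1, 86.3, 83.9 and 128 CPM and their controls 136, 85.7, 112 and 96.1. The groups overlapped in each line. Its log2 fold changes ran from -0.13 (SE 0.181) in S205A, or -0.00060 without S205A control 1, to 0.10 in Y198F (SE 0.116) and in Y308F (SE 0.149), with 0.05 (SE 0.117) in the knockout, and edgeR adjusted p-values from 0.613 to 1.00. With the smooth muscle sum Gjc1 had r = 0.700 in the 14 libraries (permutation p = 0.00516, adjusted p 0.0258) and 0.832 in the 22 series (exact permutation p = 0.00417, adjusted p 0.0258). By rank these were 0.622 (adjusted p 0.121) and 0.833 (adjusted p 0.0620), which miss the threshold. Without the 2 farthest libraries of each set r was 0.408 and 0.708. Gjc1 and the endothelial sum had r = -0.694 in the 22 series (exact permutation p = 0.00373, adjusted p 0.0258), with rho = -0.700 (adjusted p 0.161). That r was -0.622 without S205A controls 1 and 2, and -0.0350 in the 14 libraries (permutation p = 0.907).

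Gja1, which encodes connexin 43, had the widest range of the 4 connexins, 2.13 to 34.8 CPM or 16.4-fold. The wild-type libraries had 15.8, 8.98 and 34.8 CPM and the knockout libraries 17.1, 24.3 and 34.4, a log2 change of 0.37 (SE 0.558, edgeR adjusted p = 0.850), and 1.05 without wild type 3 but 0.021 without wild type 2. The Y198F libraries had 2.99, 7.10 and 16.8 CPM against 9.52, 32.7 and 9.77 in their controls, or -0.96 (SE 0.868, adjusted p = 0.554), and -1.77 without Y198F 3 but -0.12 without Y198F control 2. The S205A libraries had 14.6, 5.76, 13.0 and 4.38 CPM against 2.13, 6.06, 3.94 and 9.22, or 0.82 (SE 0.506, adjusted p = 1.00), and 0.56 (SE 0.455, adjusted p = 1.00) without S205A control 1. The Y308F libraries had 14.1, 16.5 and 17.8 CPM against 17.6, 25.7 and 6.23, or -0.02 (SE 0.447, adjusted p = 0.994). Single libraries within a group differed by up to several fold, and the groups overlapped throughout. With the smooth muscle sum Gja1 had r = -0.638 in the 14 libraries (permutation p = 0.0138, adjusted p 0.0459), but rho was -0.692 (adjusted p 0.0620) and r was -0.558 without the 2 farthest. In the 22 series r was -0.726 (exact permutation p = 0.0264, adjusted p 0.0720), and -0.750 without S205A controls 1 and 2. The summed fibroblast markers were 2016 to 3038 CPM in Y198F and 3133 to 4081 CPM in its controls, without overlap, and their part in the Y198F value was not tested. The Y198F value turned to 0.10 (SE 0.937) with the series as a term and to 1.14 (SE 0.663) against the S205A controls of the 22 series. Against S205A controls 2 and 3 alone it was 0.84 (SE 0.677).

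Counted over the 5 genes tested, 0 of 5 passed the edgeR threshold in the knockout, 1 of 5 in Y198F, 0 of 5 in S205A and 0 of 5 in Y308F. The shares of all genes called were 0.0309% in the knockout and 15% in Y198F, so 1 of 5 stands close to the latter. In S205A and Y308F no gene of the 15709 and 16037 tested passed either (0% each, with 451 and 706 at an unadjusted p under 0.05, or 2.87% and 4.4%). DESeq2 called 38 and 0 genes there (0.242% and 0%), none of them among the 6. Non-overlapping groups were 1.81% of genes in S205A and 10.7% in Y308F, and none of the 6 genes was among them.

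Ordered by group mean, each gene's neighbouring groups overlapped in every step of the order. For Panx1 the order ran from wild type (4.41 CPM) over S205A (3.87), Y198F (3.34), Y308F (3.27), Y308F controls (3.18), Y198F controls (2.99) and S205A controls (2.39) to the knockout (0.961). That last step overlapped only through S205A control 1, at 0.830 CPM. All other libraries outside the knockout had at least 1.55 CPM, above the knockout's highest of 1.36. For Gja4 it ran from Y198F (441) over S205A (410), S205A controls (398), Y308F controls (291), Y308F (240), wild type (231) and Y198F controls (223) to the knockout (204). The 3 groups that hold libraries of the 22 series were the 3 highest for Gja4. For Gja5 both Y308F-line groups were highest, at 615 CPM in the mutants and 570 in the controls, and the knockout was lowest at 303. For Gja1 the knockout was highest at 25.3 CPM, and the 3 groups with libraries of the 22 series were lowest, at 9.43 CPM in S205A, 8.96 in Y198F and 5.34 in S205A controls.

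The connexin mix, each gene's share of the summed levels per exon length of the 4 connexins, was led by Gja4. Over all libraries it was 63.4% Gja4 ± 11.1 (SD, n = 26), 31.4% Gja5 ± 11.0, 4.55% Gjc1 ± 1.05 and 0.616% Gja1 ± 0.555. The 22 series had 75.3% Gja4 ± 8.04 and 20.7% Gja5 ± 8.70 (n = 9), or 73.7% ± 6.98 and 22.5% ± 7.32 without S205A control 1 (n = 8), and the other libraries had 57.1% ± 6.35 and 37.1% ± 7.16 (n = 17). The lead depends on length: as shares of the CPM themselves, Gja4 made up 37.6% and Gja5 48.5%, and with the canonical transcript's length 54.2% and 39.5%. Wild-type arteries had 58.7% Gja4 ± 5.14 and 35.2% Gja5 ± 6.11, and knockout arteries 60.3% ± 0.866 and 32.4% ± 0.573 (n = 3 each). All knockout shares of both genes lay within the wild-type range, 52.9% to 62.5% for Gja4, and the difference was not tested. By exon length Y308F had 49.5% Gja4 ± 6.25 and 45.6% Gja5 ± 6.49 (n = 3), beside 57.5% ± 11.5 and 38.0% ± 12.7 in its controls. In shares of the CPM the Y308F libraries had 25.1% Gja4 and 63.2% Gja5, and with the canonical length 39.6% and 54.6%, so which of the 2 led there depends on the scale. The ratio of Gja4 to Gja5 in CPM ran from 0.292 to 0.818 (median 0.649) outside the 22 series, and from 0.533 to 4.95 (median 1.34) inside it, where the top value is that of S205A control 1. In the 22 series 8 of the 9 libraries stood above 1, and none of the 17 others did. The exception was S205A control 2 at 0.533, the library with the highest endothelial sum.

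**Figure D4:**
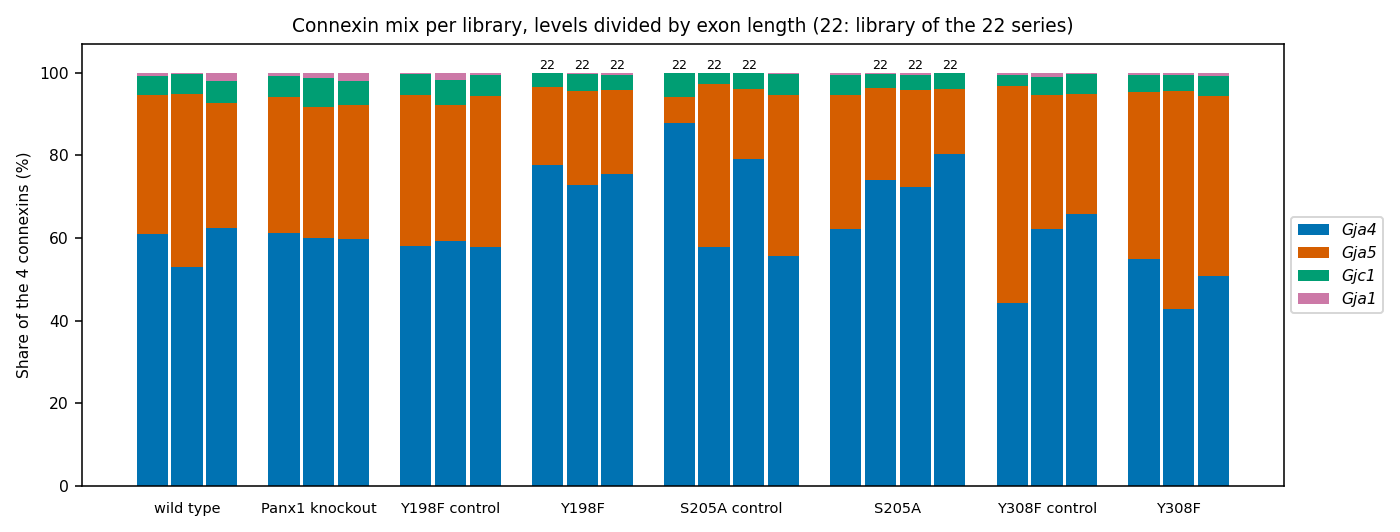
Share of Gja4, Gja5, Gjc1 and Gja1 in the summed CPM per exon kb of the 4 connexins (vertical axis, %), 1 bar per library, grouped by genotype along the horizontal axis, with 22 above the bars of the 22 series. Gja4 makes up 42.7% to 65.9% of the mix outside the 22 series and 57.9% to 87.8% inside it.

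The genes whose log2 CPM ran most like each member were sought among 12942 genes over the 14 libraries outside the 22 series and the knockout, as a description. For Gja5 they were Adcy4 (r = 0.962, rho = 0.956), Fbln2 (r = 0.958, rho = 0.895) and Esam (r = 0.957, rho = 0.925), with r of 0.924 to 0.967 in the 22 series but -0.256, 0.0747 and 0.0856 there without S205A controls 1 and 2 (7 libraries), so the values in the 22 series rest on those libraries. Esam, an endothelial adhesion molecule, was 1 of the 10 endothelial markers. For Panx1 they were the alarmin Il33 (r = 0.870, rho = 0.842), Ccl19-ps3 (r = 0.842) and the secreted protease Htra3 (r = 0.835), with r of 0.837, 0.306 and 0.693 in the 22 series and 0.734, 0.425 and 0.673 in the 7 libraries. For Gja4 they were Nacc1 (r = 0.909, rho = 0.921), the proteoglycan Sdc3 (r = 0.855) and Fuca2 (r = 0.852), with r of 0.812, 0.348 and -0.196 in the 22 series and 0.934, 0.322 and -0.135 in the 7 libraries. For Gjc1 they were the protein kinase A subunit Prkar1a (r = 0.909), Celf1 (r = 0.874) and Epn2 (r = 0.873), with 0.670, 0.933 and 0.787 in the 22 series and 0.330, 0.896 and 0.939 in the 7 libraries. For Gja1 they included the receptor phosphatase Ptprd (r = 0.913) and Serpina3n (r = 0.885), with 0.360 and 0.685 in the 22 series and 0.672 and 0.826 in the 7 libraries. Among the 6 genes themselves, Gja1 and Gjc1 had r = -0.781 (rho = -0.833) in the 14 libraries, -0.501 in the 22 series and -0.304 in its 7 libraries. Panx1 and Gja1 had 0.618, 0.759 and 0.673 in that order of sets, and Panx1 and Gjc1 had -0.608, -0.907 and -0.848. Gja4 and Gja5 had 0.365, -0.160 and -0.174, and Gja4 and Gjc1 had 0.341, 0.708 and 0.834. The 14 libraries share 1 CPM scale, so a gene that takes more counts lowers the CPM of the rest.

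Among the other connexin and pannexin genes, Gjc3 was lower in Y198F, at 2.95 CPM ± 0.443 against 10.5 ± 7.15 in the controls (SD, n = 3 each), a log2 change of -1.84 (SE 0.439, edgeR adjusted p = 0.0231), where 5.48% of all genes passed as lower. As for Gja4, mutation and series cannot be told apart in this comparison, and 0 genes passed in Y198F once the series entered the model. It is known from myelinating Schwann cells, and the summed Schwann cell markers were 192 to 207 CPM in Y198F and 230 to 327 CPM in those controls. What part they had in the Gjc3 value was not tested. In the other 3 comparisons Gjc3 did not pass.

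Proteins that sit at junctions or bind the channels were represented by 16 genes, of which 15 were tested. In Y198F 1 was higher and 2 were lower, or 3 of 15 beside 15% of all genes. Stub1, a ubiquitin ligase, had a log2 change of 0.34 (SE 0.105, edgeR adjusted p = 0.0493), 40.5 CPM ± 1.47 against 31.8 ± 1.47. Cdh2, which encodes N-cadherin, had -0.86 (SE 0.194, adjusted p = 0.0133), 7.18 CPM ± 0.892 against 12.9 ± 1.66. Dbn1, which encodes the actin-binding drebrin, had -0.41 (SE 0.0960, adjusted p = 0.0151), 46.9 CPM ± 2.63 against 62.2 ± 1.15 (n = 3 in each group). The 15 genes' median log2 fold change in Y198F was -0.02, beside 0.00 over all genes, and the 3 calls share the limit of the series given for Gja4. The fibroblast sums that did not overlap between these groups, lower in Y198F, stand beside the lower Cdh2 and Dbn1 too, and their part was not tested. None of the 15 passed in the knockout, S205A or Y308F. The highest per exon length were Cav1, which encodes caveolin 1, at 139 CPM per kb, and Ccn3, a matrix protein that binds connexins, at 71.4.

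Other routes by which cells release ATP were represented by 15 genes, of which 10 were tested, and 0 of 10 passed in each of the 4 comparisons. The shares of all genes called were 0.0309% in the knockout, 0% in S205A and Y308F and 15% in Y198F. A count of 0 therefore says little in the knockout, S205A and Y308F. With only 10 genes it says little in Y198F too, where mutation and series cannot be told apart. Their log2 fold changes in the knockout ran from -0.26 to 0.73 with a median of -0.01, beside 0.01 over all genes, and the smallest edgeR adjusted p was 0.493. The highest per exon length were Vdac1, a channel of the outer mitochondrial membrane, at 32.5 CPM per kb, and Ano6, a phospholipid scramblase and ion channel, at 18.2, against 0.458 for Panx1.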

How the data were processed

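RNA from 26 mesenteric artery libraries was read as paired ends. Per the labels' protocols, the authors mapped reads to GRCm39 with STAR 2.7.9a and counted them per gene with featureCounts (Rsubread 2.20.0). Annotation release and strand setting are not given in the sources used here. The deposited table of whole-number counts was the basis of every test. The deposited normalized signal, used for gene symbols, holds those counts divided by 1 factor per library. The authors' deposited tables hold a base mean in that signal, log2 fold changes, a test score and p-values from DESeq2 1.46.0, per the labels' protocols. Groups come from the titles. Of 57010 identifiers, 56310 matched GENCODE M39; the rest held 0.0433% of the counts.

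Each mutant group was compared with its own controls by edgeR 4.0.16 (R 4.3.3; quasi-likelihood, TMM, filterByExpr, robust), with Benjamini-Hochberg adjustment over all genes tested and a threshold of 0.05. The scripts were tested on simulated data. CPM are counts per M counts of TMM-scaled library size, computed over 18715 genes on 1 scale; log2 CPM used a prior count of 2. Correlations used 100000 resamples, or all permutations for n = 9. The floor of 3 counts covers counting error only, since reads carry no molecular identifiers. Alternatives were DESeq2 1.42.0, limma 3.58.1 voom weights, DESeq2 size factors, unfiltered genes, a joint fit of the 8 groups, a block by replicate number, the library series, other controls, and each library left out. The members were named in every comparison; of the other lists, genes past the threshold and the 2 highest per exon length were named, and the 3 genes of most like pattern for each tested member, except a few that are not reported here. The members and lists were chosen with earlier results of these data known. Alternatives without S205A control 1, the canonical transcript length and all marker correlations were added after seeing the data.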

Additional observations from a re-analysis of the deposited data

Results flagged for a closer look

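Among 5 genes and 6 pairs of mutations, a difference between mutations passed the edgeR interaction test for 3 values, each a log2 fold change minus another. They fall in the pairs that called the most genes, 11.6% of all genes in the knockout minus Y198F and 5.7% in Y198F minus Y308F, against 0% to 0.0116% in the other 4. For Panx1 the knockout minus Y198F was -2.32 (SE 0.549, adjusted p = 0.0156). For Gja4 the knockout minus Y198F was -1.13 (SE 0.190, adjusted p = 0.00221), and Y198F minus Y308F was 1.24 (SE 0.203, adjusted p = 0.00410). All 3 involve Y198F, whose libraries belong to the 22 series while its controls do not. With the series as a term they were -2.71, -0.26 and 0.37, none past the threshold, and with all 8 groups in one fit they were -2.35, -1.16 and 1.26, with adjusted p-values of 0.0731, 0.0710 and 0.102.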

How the results depend on the processing

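In the knockout 1 of the 5 genes tested passed with DESeq2 and 1 of the 6 tested without a filter, against 0 of 5 in the test used here: Panx1, at -2.18 and -2.16. Leaving out 1 library kept it at -2.50 to -1.93 (adjusted p from 0.213 to 0.719). Over all genes the knockout calls were 5, but 156 with DESeq2, 243 without a filter, 10 with voom weights and 1 to 5 with a library left out. Y198F calls were 2411, but 922 with all 8 groups in one fit, 0 with the series as a term and 908 to 2128 with a library left out. S205A calls were 0 but 38 with DESeq2, and Y308F calls 0 but 7 without a filter, each with up to 1 when a library was left out. In Y198F 0 of 5 genes passed with the series as a term, with or without S205A control 1, and against S205A controls of the 22 series, all 3 or 2 of them. Signs that changed all belong to values that did not pass, except Gja4 in Y198F. With the series as a term Y198F gave Gja1 0.10, Gja5 0.016 and Gjc1 -0.041. Against the S205A controls of the 22 series it gave Gja1 1.14, Gja4 -0.044 and Gjc1 -0.14, and against 2 of them Gja1 0.84 and Gja4 -0.044. Voom weights gave -0.072 for Gja4 and 0.048 for Gja5 in S205A, and 0.15 for Gja1 in Y308F. In the 22 series without S205A control 1, Gjc1 was 0.018 in S205A. The series difference of Gja5 was 0.022 without S205A control 1. Leaving out 1 library gave Gjc1 -0.036 to 0.12 in the knockout; Panx1 -0.19 to 0.42 and Gjc1 -0.023 to 0.18 in Y198F; Gja4 -0.20 to 0.21 and Gja5 -0.56 to 0.31 in S205A; and Panx1 -0.24 to 0.36, Gja1 -0.40 to 0.44 and Gja5 -0.11 to 0.67 in Y308F. Values that kept their sign but moved were Gja4 at -0.30 to -0.092 in the knockout and -0.40 to -0.17 in Y308F, Panx1 at 0.41 to 1.15, Gja1 at 0.53 to 1.23 and Gjc1 at -0.29 to -0.00060 in S205A, and Gjc1 at 0.011 to 0.28 in Y308F. The cause of these changes was not tested. Differences between mutations past the threshold were 3, but 5 without a filter, 0 with all 8 groups in one fit and 0 with the series as a term. Those added without a filter were for Gja1. The knockout minus Y198F was 1.33 (SE 0.251, edgeR adjusted p = 8.96e-06), and Y198F minus Y308F was -0.96 (SE 0.277, edgeR adjusted p = 0.0159). With the filter these were 1.33 (SE 1.08) and -0.94 (SE 1.01), with edgeR adjusted p-values of 0.482 and 0.650. The mean Gja4 share of the connexins was 63.4% by exon length and 37.6% of the CPM.

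Same-numbered libraries deviated together with r from -0.374 to 0.307. This shows no clear pairing by number, but a check on so few libraries cannot exclude one. With the replicate block 18 genes were called in the knockout, 1760 in Y198F and 0 in S205A and Y308F. Members past the threshold in the 4 comparisons were 0, 1, 0 and 0, as without it, with Panx1 at -2.19 in the knockout and Gja4 at 0.98 in Y198F. The block turned Gja5 to 0.11 in S205A and Gja1 to 0.16 in Y308F. Panx1 rests on 11 to 96 counts and Panx2 on at most 12, so modest changes of the pannexins could be missed at this depth.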
